A study of Mus musculus with 8 samples.

Results

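The chemokine receptors analysed here were 9 genes, Ccr1, Ccr2, Cxcr2, Cxcr3, Cxcr4, Cxcr6, Cx3cr1, Ackr1 and Ackr3, taken by symbol from a table of 48607 assembled loci of the mouse aorta. Each symbol named 1 locus, and 8 of the 9 loci were among the 20506 that were tested, while Cxcr2 did not reach the minimum level. The libraries came from the whole aorta of mice that all lacked ApoE, the apolipoprotein that clears lipoprotein remnants, and that were fed a Western diet, on which such mice develop atherosclerosis. The comparison asks what the loss of NPRC, the natriuretic peptide receptor encoded by Npr3, changes in this setting. In the double knockout, Npr3 carried a frameshift mutation made with CRISPR, so its transcript can still be counted.

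By their titles, 5 libraries were ApoE-/- (numbered 1 to 5) and 3 were NPRC-/-ApoE-/- (numbered 1 to 3), whereas the study's methods give 5 per group. The labels carry a second field for genotype, and it matched the title in 4 libraries (ApoE-/- 1, 2 and 3, and NPRC-/-ApoE-/- 3) but gave the other genotype in the remaining 4. Groups were therefore formed by title, and each comparison was repeated by genotype entry. Npr3 did not tell the labels apart, with 0.62 to 1.69 FPKM under the title ApoE-/- and 1.13 to 1.39 under NPRC-/-ApoE-/-. The total count per library was 62969165 to 86693276, and no pair of libraries differed by as little as sampling noise. Nothing in the labels numbers the animals, so the p-values measure the spread between these libraries. In a bulk aorta, fewer cells of a type and less RNA per cell cannot be told apart.

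Chemokine receptors are proteins with several membrane-spanning segments that couple to inhibitory G proteins and steer leukocytes along gradients of small secreted ligands. In atherosclerosis, Ccr2 and Cx3cr1 are known for the entry and survival of monocytes in the vessel wall, Cxcr2 for neutrophils, and Cxcr3 and Cxcr6 for T cells. Ackr1 and Ackr3 are atypical receptors that bind and remove ligands without classical G protein signalling, Ackr1 chiefly on venules and red cells. Ackr3 shares the ligand Cxcl12 with Cxcr4.

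The receptors share a short coding stretch, the DRY motif at the inner end of the third membrane segment, through which a receptor contacts its G protein. A window of 21 coding bases from the motif onwards is shown for the 8 receptors in which it was found (GENCODE M21 transcripts, GRCm38, in the direction of transcription), as the sequence that nearly all of these receptors have in common. Capitals mark the 3 codons of the motif.
Ccr1 (chr9:123964084-123964104, minus strand, from codon 130): GACAGATACctggccattgtc
Ccr2 (chr9:124106132-124106152, plus strand, from codon 150): GATAGGTACttggctattgtt
Cxcr2 (chr1:74158772-74158792, plus strand, from codon 142): GACCGCTACctggccattgta
Cxcr3 (chrX:101732596-101732616, minus strand, from codon 147): GACAGATATctgagcatagtg
Cxcr4 (chr1:128589500-128589520, minus strand, from codon 135): GACCGGTACctcgctattgtc
Cxcr6 (chr9:123810338-123810358, plus strand, from codon 142): GATCGTTTCattgtagtggtc
Cx3cr1 (chr9:120051936-120051956, minus strand, from codon 127): GACCGGTACcttgccatcgtc
Ackr3 (chr1:90214241-90214261, plus strand, from codon 141): GACCGCTATctctccatcacc
In Cxcr6 the last of these codons encodes phenylalanine in place of tyrosine, and the motif was not found in Ackr1, whose protein is known to lack it. Against the window of Ccr2, 16 of 21 bases were identical in Ccr1 and in Cxcr4, 15 in Cxcr2, 14 in Cx3cr1, 12 in Cxcr3, 11 in Cxcr6 and 9 in Ackr3. The atypical receptor Ackr3 had the fewest identical bases of the 7.

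Grouped by title, Ccr2, Cxcr3, Cxcr4 and the locus that holds Ackr1 were lower in the libraries titled NPRC-/-ApoE-/- at an unadjusted p-value under 0.05, while the log2 fold changes of Ackr3 and the Cxcr6 locus were −0.13 and 0.00. These 4 of 8 tested receptors compare with 13.6% of all tested loci at that threshold, and with 7.13% of all loci that were lower at it. The receptors and the gene lists below were chosen with earlier results of these data known, so such comparisons are descriptions and not tests. The 8 include the rows of Ackr1 and Cxcr6, which are not read as the receptor alone, and Cxcr3, which passed the minimum level only through the group in which it was high. Without the Ackr1 and Cxcr6 rows, 3 were lower at that threshold and the median log2 fold change was −1.35. Of the 8, 3 met the study's criterion of a fold change above 2 or below 0.5 at an unadjusted p-value under 0.05, against 3.47% of all loci. The titled groups did not overlap for Ccr2 and the Ackr1 locus, 2 of 8, against 7.41% of all loci. Values of log2 fold change were below 0 for 7 of the 8 receptors, with a median of −1.11 beside −0.01 over all loci. No receptor reached an adjusted p-value under 0.05 with edgeR's quasi-likelihood test and Benjamini-Hochberg adjustment (0 of 8, smallest 0.26). Of all tested loci, 0 reached it with that test (smallest 0.0525). With DESeq2 the number of receptors was 3 of 8, and with limma-voom and sample quality weights it was 1 of 8. The share of all loci at an adjusted p-value under 0.05 was not computed for either method. At an unadjusted p-value under 0.05 they called 3423 and 5419 of all loci, against 2797 with edgeR. By genotype entry, 0 of 8 had an unadjusted p-value under 0.05 with edgeR (smallest 0.344), against 1.31% of all loci, and the median was −0.12. Directions below are those by title unless stated otherwise.

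**Figure D1:**
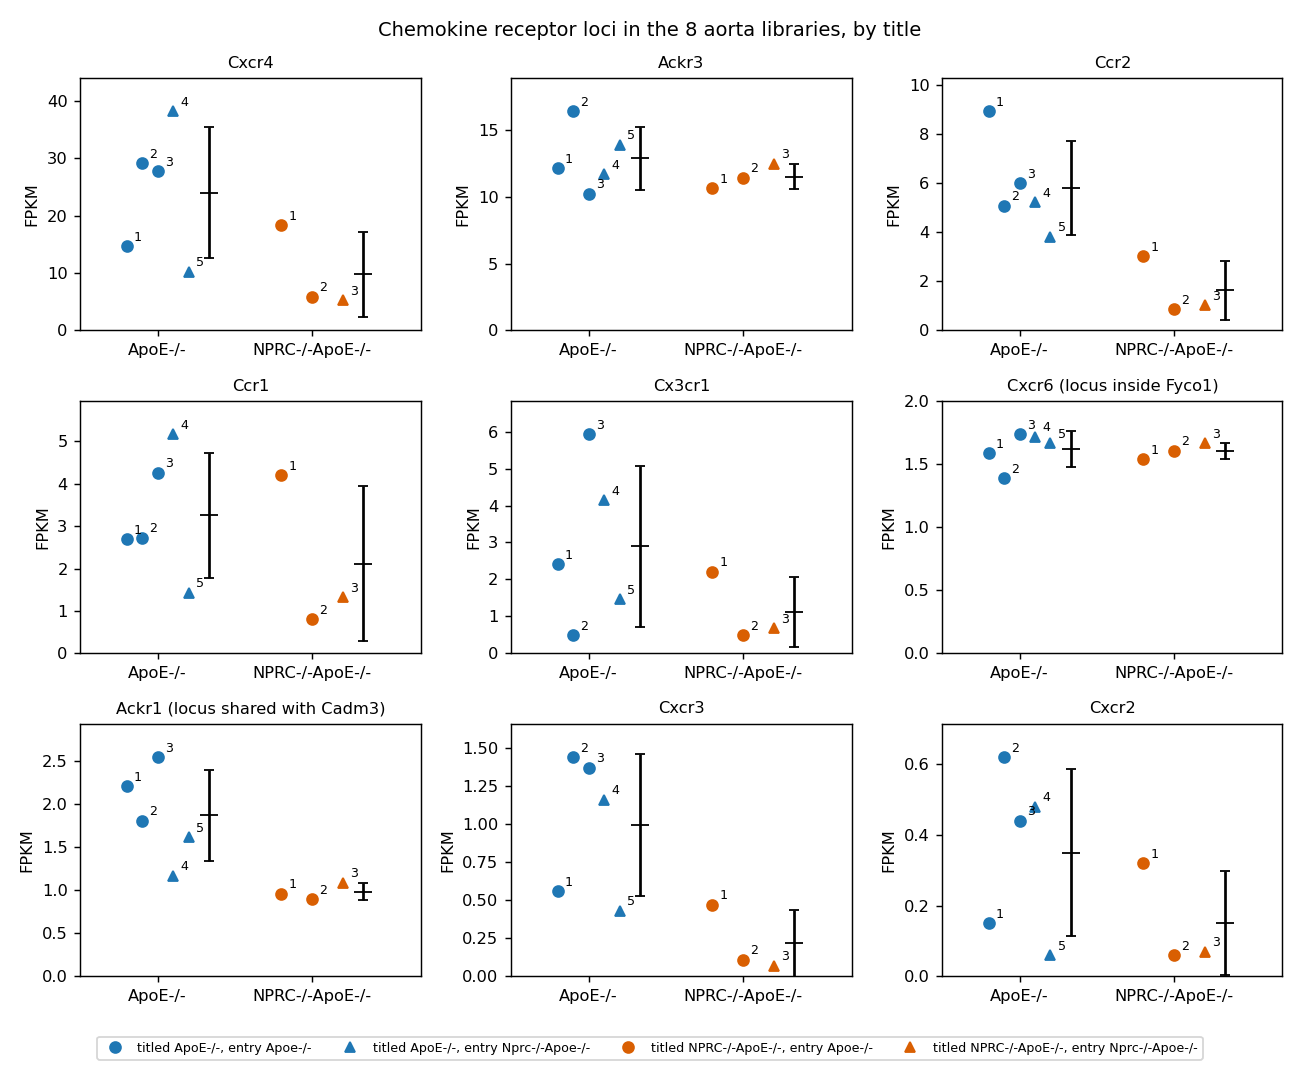
FPKM of each receptor locus in the 8 libraries, with blue for the title ApoE-/- and orange for NPRC-/-ApoE-/-, circles and triangles for the genotype entries Apoe-/- and Nprc-/-Apoe-/-, the library number beside each point, and a bar for the mean and SD of each titled group. The titled groups are apart for Ccr2 and the Ackr1 locus, whereas Ackr3 lies between 10.22 and 16.37 FPKM and the Cxcr6 locus between 1.39 and 1.74 FPKM in all 8.

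Ccr2 (ENSMUSG00000049103, chr9:124101950-124113557, plus strand) is the receptor through which Ccl2 draws inflammatory monocytes from the blood. Measured as FPKM (fragments scaled to transcript length and library size), Ccr2 stood at 8.94, 5.09, 6.01, 5.22 and 3.83 in ApoE-/- 1 to 5 by title. It was 3.02, 0.86 and 1.04 in those titled NPRC-/-ApoE-/- 1 to 3. Every library of the first group was above every library of the second, at 5.82 ± 1.91 (SD, n = 5) against 1.64 ± 1.20 (SD, n = 3). The log2 fold change was −1.82 (standard error 0.45, unadjusted p = 0.00287, adjusted p = 0.26 from edgeR). The mean log2 CPM (counts scaled to library size) differed by −1.97, with p = 0.0357 in a two-sided exact permutation test, the smallest that 5 libraries against 3 allow. By genotype entry the log2 fold change of Ccr2 was −0.48 with a 95% interval of −2.06 to 1.10.

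Ccr1 (ENSMUSG00000025804, chr9:123962124-123968692, minus strand) binds Ccl3 and Ccl5 on monocytes, macrophages and neutrophils. Ccr1 measured 2.69, 2.73, 4.26, 5.17 and 1.43 FPKM in the libraries titled ApoE-/- and 4.20, 0.81 and 1.32 in those titled NPRC-/-ApoE-/-. The groups overlapped, since NPRC-/-ApoE-/- 1 was above 3 of the 5 libraries titled ApoE-/-. Its log2 fold change was −0.65 with a 95% interval of −1.97 to 0.67 (unadjusted p = 0.296, adjusted p = 0.64, edgeR). It depended on single libraries, being −1.59 without NPRC-/-ApoE-/- 1 (unadjusted p = 0.0204, adjusted p = 0.16, edgeR), −0.24 without NPRC-/-ApoE-/- 2 (unadjusted p = 0.685, adjusted p = 0.95, edgeR), −0.40 without NPRC-/-ApoE-/- 3 and −0.38 without ApoE-/- 4. Ccr1 and Ccr2 lie near each other on chromosome 9, and their log2 CPM had a Pearson correlation of 0.74 over the 8 libraries, a description across libraries that share their titles' groups.

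Cxcr4 (ENSMUSG00000045382, chr1:128588199-128592293, minus strand) binds Cxcl12 and Mif, is carried by many leukocytes and is known for retaining them in the bone marrow. Cxcr4 measured 14.69, 29.15, 27.78, 38.17 and 10.20 FPKM in the libraries titled ApoE-/-. It was 18.37, 5.86 and 5.22 in those titled NPRC-/-ApoE-/-. NPRC-/-ApoE-/- 1 was above ApoE-/- 1 and 5, so the groups overlapped. In the edgeR fit, Cxcr4 had a log2 fold change of −1.31 (standard error 0.56, 95% interval −2.58 to −0.04, unadjusted p = 0.0446, adjusted p = 0.36, edgeR). The exact permutation test gave p = 0.107. The unadjusted p-value was no longer under 0.05 when any 1 of ApoE-/- 2, 3 or 4 or NPRC-/-ApoE-/- 2 or 3 was left out, with log2 fold changes of −1.25, −1.21, −1.04, −1.02 and −1.01, and without NPRC-/-ApoE-/- 1 the log2 fold change was −2.10. By genotype entry the log2 fold change of Cxcr4 was −0.06 (95% interval −1.61 to 1.49).

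Cxcr3 (ENSMUSG00000050232, chrX:101731535-101734269, minus strand) is the receptor of T helper 1 cells for Cxcl9 and Cxcl10. Cxcr3 measured 0.56, 1.44, 1.37, 1.16 and 0.43 FPKM in the libraries titled ApoE-/-, and 0.47, 0.11 and 0.07 in those titled NPRC-/-ApoE-/-. These values rest on 70 to 234 counts in the first group and on 86, 15 and 14 in the second. Only ApoE-/- 5 was below NPRC-/-ApoE-/- 1. In the edgeR fit, Cxcr3 had a log2 fold change of −2.17 (standard error 0.69, unadjusted p = 0.0119, adjusted p = 0.29, edgeR), the lowest of the receptors tested. Cxcr3 passed the minimum of 1 FPKM in 3 libraries only through libraries titled ApoE-/-, so it entered the test by the group in which it was high. Fitted without that minimum, the log2 fold change was again −2.17 (standard error 0.68, unadjusted p = 0.00944, adjusted p = 0.36, edgeR). Leaving out NPRC-/-ApoE-/- 1 moved it to −3.37.

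Cxcr2 (ENSMUSG00000026180, chr1:74153989-74161246, plus strand), the neutrophil receptor for Cxcl1, had the lowest mean level of the 9. Cxcr2 measured 0.15, 0.62, 0.44, 0.48 and 0.06 FPKM in the libraries titled ApoE-/- and 0.32, 0.06 and 0.07 in those titled NPRC-/-ApoE-/-, from 16 to 152 counts. It was not tested in the fit with the minimum level. Without that minimum its log2 fold change was −1.22 with a 95% interval of −2.98 to 0.53 (unadjusted p = 0.152, adjusted p = 0.56, edgeR), so a difference was not detectable at this depth and number of libraries.

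Cx3cr1 (ENSMUSG00000052336, chr9:119901616-120069879, minus strand) is the fractalkine receptor of patrolling monocytes and resident macrophages. Cx3cr1 measured 2.42, 0.49, 5.93, 4.15 and 1.47 FPKM in the libraries titled ApoE-/- and 2.21, 0.49 and 0.68 in those titled NPRC-/-ApoE-/-. ApoE-/- 2 was as low as the lowest of the second group, although its Cxcr4 was the second highest of all. Its log2 fold change was −1.39 with a 95% interval of −3.22 to 0.44 (unadjusted p = 0.119, adjusted p = 0.47, edgeR). It was −1.67 without ApoE-/- 2 and −2.29 without NPRC-/-ApoE-/- 1, each with an unadjusted p-value under 0.05 (0.0369 and 0.0390, edgeR; adjusted p = 0.48 and 0.21). It was −0.90 without ApoE-/- 3 and −1.01 without NPRC-/-ApoE-/- 2 (unadjusted p = 0.267 and 0.295, edgeR; adjusted p = 0.69 and 0.85). The Cx3cr1 locus spans 166681 bases and overlaps 8 other genes, 3 of them on its strand.

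Ackr3 (ENSMUSG00000044337, chr1:90203980-90216751, plus strand), the scavenger of Cxcl12, was the steadiest of the receptors whose counts are their own. Ackr3 measured 12.13, 16.37, 10.22, 11.66 and 13.87 FPKM in the libraries titled ApoE-/- and 10.61, 11.40 and 12.47 in those titled NPRC-/-ApoE-/-. The means were 12.8 ± 2.36 (SD, n = 5) and 11.5 ± 0.93 (SD, n = 3). The log2 fold change was −0.13 with a 95% interval of −0.47 to 0.21 (unadjusted p = 0.418, adjusted p = 0.73, edgeR), and by genotype entry it was 0.09 with an interval of −0.27 to 0.45. The interval by title overlapped that of Cxcr4 by title, which shares the ligand Cxcl12, but such an overlap is no test of a difference. The fits of these receptors were not compared with each other, so they do not show that the receptors differed in their response. Their ratio within each library follows.

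The ratio of Cxcr4 to Ackr3 on the FPKM scale was 1.21, 1.78, 2.72, 3.27 and 0.735 in the libraries titled ApoE-/-. It was 1.73, 0.514 and 0.419 in those titled NPRC-/-ApoE-/-. Ackr3 was thus the higher of the pair in ApoE-/- 5 and NPRC-/-ApoE-/- 2 and 3. The difference of the log2 ratio between the titled groups was −1.24 (two-sided exact permutation test, p = 0.107), and by genotype entry it was −0.47 (exact permutation test, p = 0.571), so the groups were not separated.

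The 250 bases upstream of the start of Cxcr4 and of Ackr3 are printed because the highest library was 7.31 times the lowest for Cxcr4 and 1.60 times for Ackr3, receptors of a shared ligand. The sequences are from RefSeq on GRCm38.p6, in the direction of transcription, with capitals for matches to the GC box GGGCGG and to TATAAA on either strand.
Cxcr4: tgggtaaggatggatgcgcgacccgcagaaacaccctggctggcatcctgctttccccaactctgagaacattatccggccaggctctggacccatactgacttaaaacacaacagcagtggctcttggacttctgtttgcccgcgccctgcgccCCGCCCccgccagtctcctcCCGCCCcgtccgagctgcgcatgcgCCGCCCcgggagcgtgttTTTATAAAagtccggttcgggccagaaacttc
Ackr3: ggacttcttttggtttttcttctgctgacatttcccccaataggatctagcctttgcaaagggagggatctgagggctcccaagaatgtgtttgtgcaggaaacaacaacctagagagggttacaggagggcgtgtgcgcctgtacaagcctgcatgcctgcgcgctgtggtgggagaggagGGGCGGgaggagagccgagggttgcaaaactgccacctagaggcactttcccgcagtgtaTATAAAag
The window of Cxcr4 (chr1:128592300-128592549, minus strand) held 3 GC boxes and 2 overlapping matches to TATAAA on opposite strands, and that of Ackr3 (chr1:90203730-90203979, plus strand) held 1 match to each. Over 32851 promoter windows of this length, 32.7% held a GC box and 12.4% held TATAAA. Of the 9 receptors, 2 had a GC box and 2 had TATAAA, in each case Cxcr4 and Ackr3. Motifs of other transcription factors were searched as well. The PU.1 motif was found in 3 of 9 receptors, against 23.3% of windows, and the IRF motif in 1 of 9, against 7.13%. The AP-1 motif and the hypoxia response core were found in 0 of 9, against 6.75% and 16.6% of windows. Such matches describe letters in a window, not sites in use.

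The remaining pair of rows, Ackr1 and Cxcr6, could not be read as the receptor alone. For each row, the length behind its values was computed from the counts and the FPKM, scaled by 1146 loci with a single annotated transcript. For Ccr1, Cxcr2, Cxcr4 and Ackr3 it was within 2 bases of the annotated exons, for example 1807 against 1808 bases for Cxcr4, and it was within 5% for Cxcr3, Cx3cr1 and Ccr2. The assembled locus of Ccr2 (chr9:124101001-124109507) starts before the annotated gene and ends short of its end. For Ccr2 the match of lengths therefore does not show that the counts lie on its exons. For the row named Cxcr6 it was 16805 bases, 8.70 times the 1931 exon bases of the gene, which is within 5 bases of the whole locus of 16802 bases (chr9:123802206-123819007). Cxcr6 itself (ENSMUSG00000048521) occupies chr9:123806475-123811760 on the plus strand, and the whole locus lies within Fyco1 on the other strand, a gene for an adaptor that carries autophagosomes. For the row named Cadm3 and Ackr1 it was 8423 bases, 6.36 times the 1324 exon bases of Ackr1.

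**Figure D2:**
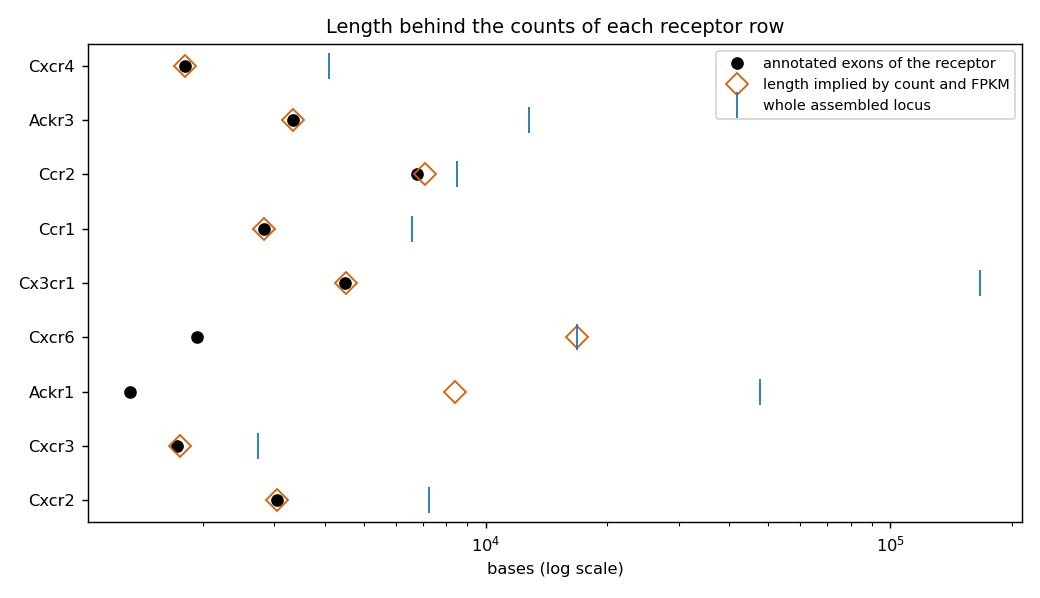
Length in bases, on a log scale, of the annotated exons of each receptor (black), of the length implied by count and FPKM (open orange), and of the assembled locus (blue bar). The implied length is close to the exon length for 7 receptors, but at 16805 bases for Cxcr6 and 8423 bases for Ackr1 it lies well to the right of it.

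The Cxcr6 row had an FPKM of 1.59, 1.39, 1.74, 1.72 and 1.67 in the libraries titled ApoE-/- and 1.54, 1.61 and 1.67 in those titled NPRC-/-ApoE-/-, a range of 1.25 times. Its log2 fold change was 0.00 with a 95% interval of −0.31 to 0.32 (unadjusted p = 0.972, adjusted p = 0.99, edgeR). Cxcr6, the receptor of resident T cells for Cxcl16, cannot be told apart there from reads of Fyco1. The libraries were made with a U-labelled second strand that was later removed, which keeps the strand, but whether the counting used it is not given in the sources used here. The row gives no level of Cxcr6.

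Ackr1 (ENSMUSG00000037872, chr1:173331886-173333750, minus strand) shares its row with Cadm3, an adhesion protein of neurons on the same strand. The row had an FPKM of 2.21, 1.81, 2.55, 1.17 and 1.62 in the libraries titled ApoE-/- and 0.96, 0.90 and 1.09 in those titled NPRC-/-ApoE-/-, without overlap. The log2 fold change was −0.91 (standard error 0.26, unadjusted p = 0.00701, adjusted p = 0.27, edgeR; exact permutation p = 0.0357). Markers of neurons moved with it: their mean log2 CPM was lower by 3.85 in the libraries titled NPRC-/-ApoE-/-, without overlap (exact permutation p = 0.0357), with a summed FPKM of 9.91 to 35.15 against 9.61 to 14.25, which did overlap. Of the 4 neuron markers 3 were tested, and 2 were lower at an unadjusted p-value under 0.05 (edgeR), against 7.13% of all loci. The Pearson correlation of the row with the neuron markers over the 8 libraries was 0.93. It was 0.70 with the fibroblast, 0.67 with the NK cell and 0.62 with the leukocyte markers. Ackr1 itself is known chiefly from venules and red cells. Markers of venous and lymphatic endothelium differed by −0.05 (exact permutation p = 0.607) and erythroid markers by −0.95 (exact permutation p = 0.357). How much of the row is Ackr1 was not tested.

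**Figure D3:**
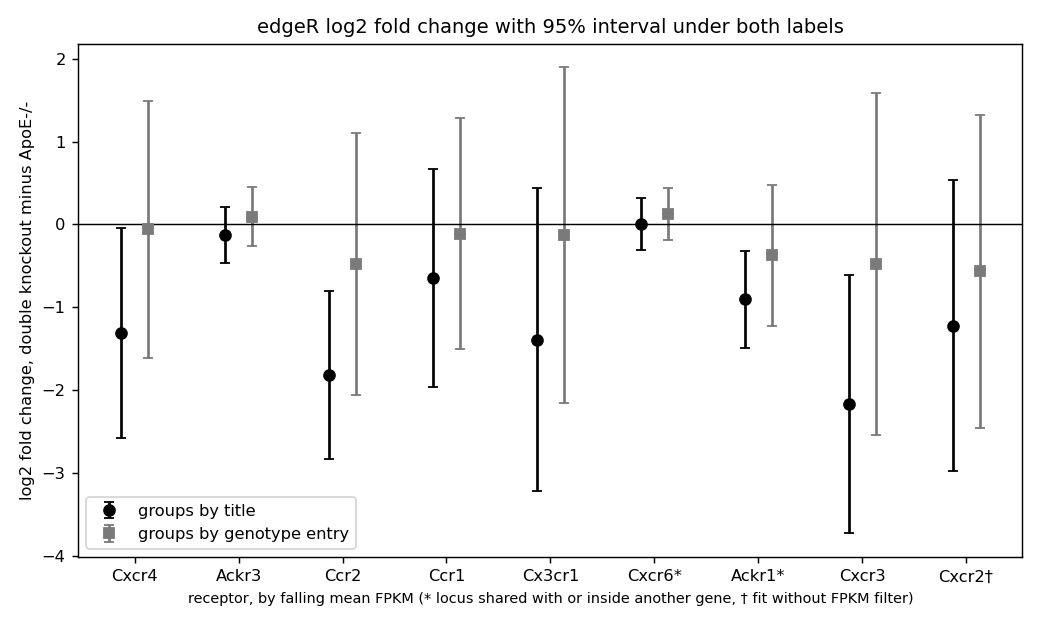
Log2 fold change from edgeR with its 95% interval for each receptor, with groups formed by title (black circles) or by genotype entry (grey squares). By title the intervals of Cxcr4, Ccr2, the Ackr1 locus and Cxcr3 lie below 0, and by genotype entry all 9 intervals include 0.

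On the FPKM scale, which is per length, the receptors stood in the order Cxcr4 (mean over all 8 libraries 18.7 ± 12.0, SD), Ackr3 (12.3 ± 1.98), Ccr2 (4.25 ± 2.68), Ccr1 (2.83 ± 1.59), Cx3cr1 (2.23 ± 1.94), Cxcr3 (0.70 ± 0.55) and Cxcr2 (0.275 ± 0.221), leaving out the shared rows. The step from Ackr3 to Ccr2 held in all 8 libraries. Neighbours did not keep their order elsewhere: Cxcr4 exceeded Ackr3 in 5 of 8 libraries, Ccr2 exceeded Ccr1 in 6 and Ccr1 exceeded Cx3cr1 in 6. The highest library was 20.6 times the lowest for Cxcr3, 12.1 times for Cx3cr1, 10.4 times for Ccr2 and 1.60 times for Ackr3.

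The loci whose log2 CPM ran most like that of a receptor, among 19929 named loci and over the 8 libraries, were Ccl6, Kcnn4 and Il13ra1 for Cxcr4 (Pearson r 0.995 to 0.997). They were Gm49227, Trim30a and Arhgap18 for Ccr2 (0.983 to 0.986) and Tpr, Gm19817 and Grin2a for Ccr1 (0.987 to 0.996). With 8 libraries and so many loci, values of this size are a description only.

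Leukocyte markers varied along with several receptors, and their part in the differences by title was not tested. The summed FPKM of 5 markers of all leukocytes was 81.0 to 186 in the libraries titled ApoE-/- and 44.1 to 109 in those titled NPRC-/-ApoE-/-, none of them at 0, and 4 of the 5 were lower at an unadjusted p-value under 0.05, against 7.13% of all loci. Their mean log2 CPM differed by −1.24 (two-sided exact permutation test, p = 0.0714), that of 9 macrophage markers by −1.04 (exact permutation p = 0.107) and that of 7 smooth muscle markers by 0.70 (exact permutation p = 0.0357, no overlap). Of the other lists, mean log2 CPM differed by −0.85 for T cells (exact permutation p = 0.0714), −1.17 for NK cells (exact permutation p = 0.0357, no overlap), −1.50 for B cells (exact permutation p = 0.214), −0.38 for monocytes (exact permutation p = 0.321) and −0.02 for neutrophils (exact permutation p = 0.929). The minimum level was reached by 2 of 8 T cell, 1 of 5 NK cell and 2 of 5 B cell markers. The NK cell markers were low, with a summed FPKM of 2.85 to 4.20 against 1.68 to 2.47. Of all single loci, 7.41% did not overlap between the titled groups. Fibroblast markers differed by −0.79 (exact permutation p = 0.0714, overlapping), with a summed FPKM of 505.95 to 1331.55 against 282.05 to 701.16. All 6 of 6 had a log2 fold change below 0, against 50.9% of all loci. At an unadjusted p-value under 0.05 (edgeR), 2 of the 6 were lower, against 7.13% of all loci. NPRC-/-ApoE-/- 1, the library in which Ccr1 and Cxcr4 were high for its group, had the highest leukocyte markers of its group. Over the 8 libraries the Pearson correlation was 0.98 between Cxcr4 and the macrophage markers, 0.97 between Cxcr3 and the leukocyte markers, 0.91 for Ccr1 and 0.89 for Ccr2 with the leukocyte markers, and 0.71 between Cx3cr1 and the macrophage markers. Other lists correlated with the same receptors too: the fibroblast markers at 0.93 with Cxcr4 and Cxcr3, 0.88 with Ccr1 and 0.84 with Ccr2, the neuron markers at 0.88 with Ccr2 and 0.84 with Cxcr3, and the smooth muscle markers at −0.91 with Ccr2 and −0.92 with Cxcr3. The T cell markers correlated at 0.49 with Cxcr3.

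**Figure D4:**
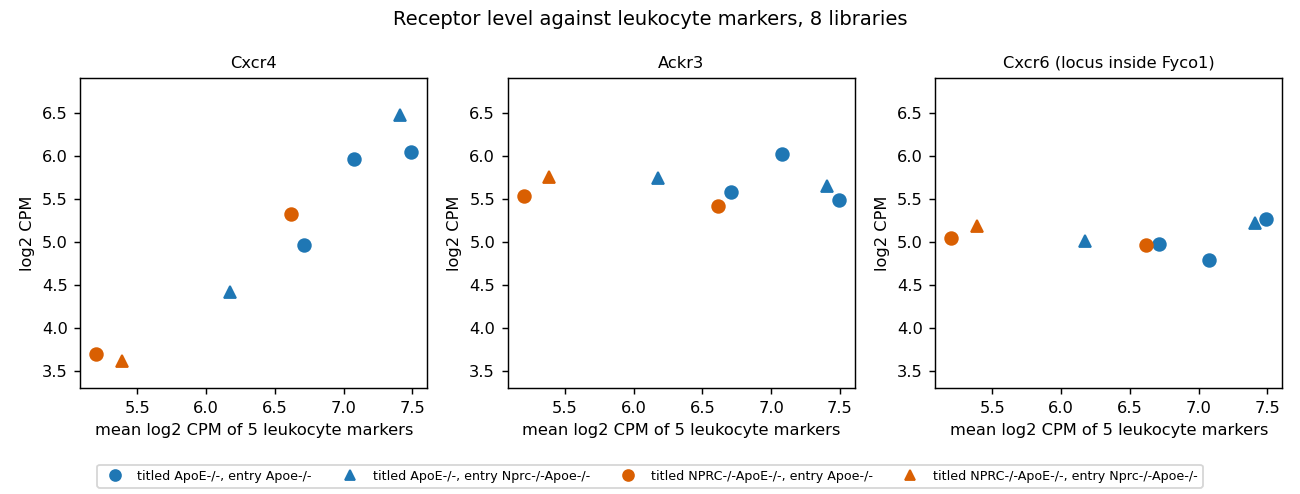
Log2 CPM of Cxcr4, Ackr3 and the Cxcr6 locus against the mean log2 CPM of 5 leukocyte markers, 1 point per library, coloured by title and shaped by genotype entry. Cxcr4 climbs along the leukocyte axis over a range of 2.86, whereas Ackr3 and the Cxcr6 locus span 0.60 and 0.47.

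Taken relative to the leukocyte markers, that is as log2 CPM minus their mean in the same library, Cxcr4 differed by −0.12 between the titled groups (exact permutation p = 0.607), Cx3cr1 by 0.04 (exact permutation p = 0.857) and Ccr1 by 0.42 (exact permutation p = 0.214). Ccr2 was lower by 0.74 and Cxcr3 by 1.11 in the libraries titled NPRC-/-ApoE-/-, both without overlap and with an exact permutation p of 0.0357, the smallest possible. The nearest libraries of the titled groups were at −1.83 and −1.92 for Ccr2 and at −6.48 and −6.58 for Cxcr3. Cxcr3 had 15 and 14 counts in NPRC-/-ApoE-/- 2 and 3. The subtraction takes a receptor to change by the same log2 amount as the markers, which was not tested. Whether either receptor was lower beyond the leukocyte markers was therefore not tested. On this relative scale the groups did not overlap for 11.4% of all loci. Ackr3 stood 1.12 higher relative to the leukocyte markers (exact permutation p = 0.143). Its own log2 CPM differed by −0.12, and its Pearson correlation with these markers was 0.01. The value thus largely restates the markers' own difference of −1.24. By genotype entry the smallest exact permutation p-value over the 9 receptors on this scale was 0.321.

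**Figure D5:**
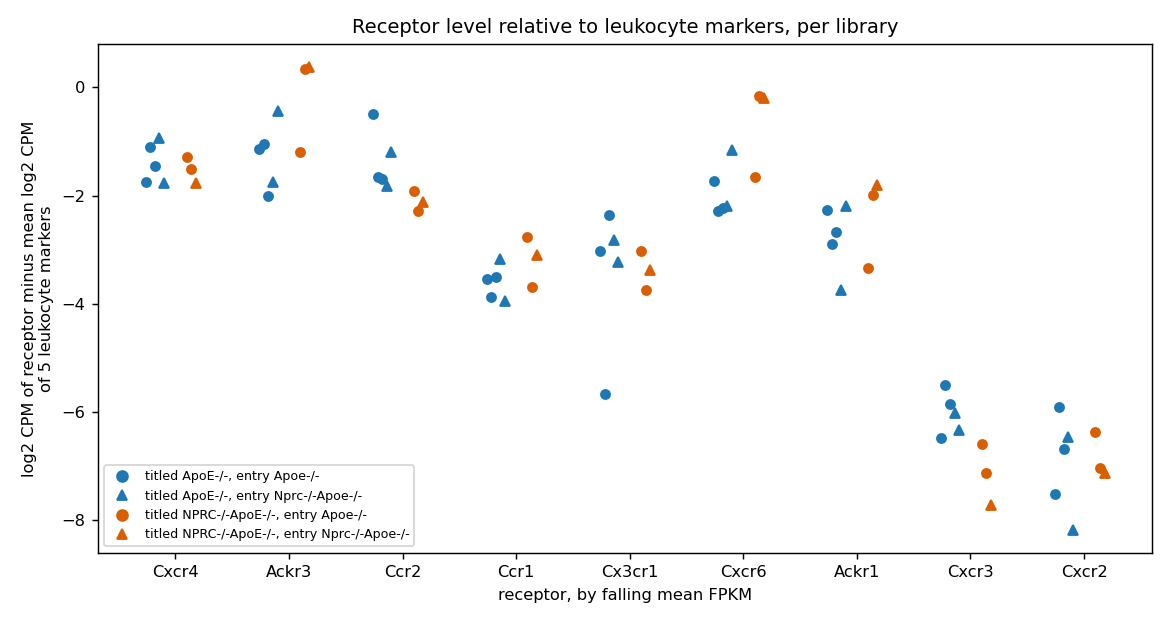
Log2 CPM of each receptor minus the mean log2 CPM of 5 leukocyte markers, 1 point per library, coloured by title and shaped by genotype entry. The orange points of Ccr2 and Cxcr3 lie below all blue points, and those of Cxcr4 lie among them.

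Of 22 listed ligands, 14 were tested, and all 14 had a log2 fold change below 0 by title (median −0.95), as did 50.9% of all loci. Of the 14, 7 had an unadjusted p-value under 0.05, all lower, against 7.13% of all loci, and 0 had an adjusted p-value under 0.05 (edgeR). The 7 include Ccl5 (mean 1.47 FPKM by title ApoE-/-, 0.51 by title NPRC-/-ApoE-/-). They also include Ccl7, which shares its row with Ccl11 (1.11 and 0.46 FPKM). Both rows passed the minimum level only through libraries titled ApoE-/-, so they entered the test by the group in which they were high. By genotype entry 0 of the 14 had an unadjusted p-value under 0.05, and the median was −0.10. The ligands with the highest mean FPKM in their lists were Ccl6 in the joint list of Ccr1 and Ccr2, being a ligand of Ccr1, with a mean of 31.9 FPKM (log2 fold change −0.81, standard error 0.39, unadjusted p = 0.069, adjusted p = 0.40, edgeR) and Cx3cl1, or fractalkine, for Cx3cr1 (15.4 FPKM, log2 fold change −0.93, unadjusted p = 0.090, adjusted p = 0.43, edgeR). For Cxcr6 it was Cxcl16, a membrane-bound chemokine that also takes up oxidized lipoproteins (12.7 FPKM, log2 fold change −1.16, unadjusted p = 0.040, adjusted p = 0.34, edgeR). For Cxcr4 and Ackr3 it was Mif (16.3 FPKM, log2 fold change −0.19, unadjusted p = 0.451, adjusted p = 0.75, edgeR). Cxcl12, their defining ligand and named after its values were seen, had 7.90 FPKM and a log2 fold change of −0.94 (standard error 0.30, unadjusted p = 0.012, adjusted p = 0.29, edgeR). In the list of Cxcr2, Pf4, or platelet factor 4, was highest (5.20 FPKM, log2 fold change −0.32), although it is not an established ligand of that receptor. Cxcl1, its main ligand and named after its values were seen, had 5.13 FPKM and a log2 fold change of −1.51 (standard error 0.41, unadjusted p = 0.00499, adjusted p = 0.26, edgeR). The ligands of Cxcr3 were too low to be tested, Cxcl9 having a mean of 0.509 FPKM and Cxcl10 and Cxcl11 sharing a row of 0.210 FPKM.

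Beside the 9 receptors, the table held 14 other chemokine receptor symbols, of which 6 were tested. By title, 2 of the 6 were lower at an unadjusted p-value under 0.05, against 7.13% of all loci, namely the lymph node homing receptor Ccr7 (log2 fold change −1.58, standard error 0.63, adjusted p = 0.33, edgeR) and the atypical receptor Ccrl2 (−0.86, standard error 0.30, adjusted p = 0.31, edgeR). Ccr10, a receptor of skin-homing lymphocytes, was higher without overlap (0.63, standard error 0.24, unadjusted p = 0.0287, adjusted p = 0.33, edgeR). The titled groups did not overlap for 7.41% of all loci, counting both directions. By genotype entry 0 of the 6 had an unadjusted p-value under 0.05. A list of 22 genes of G protein signalling in leukocytes also held the formyl peptide receptors Fpr1 and Fpr2, which are no part of the chemokine receptor signal and were too low to be tested. Of the other 20, 7 were lower and 0 higher at an unadjusted p-value under 0.05 by title, against 7.13% of all loci that were lower (median log2 fold change −0.33), with 0 by genotype entry. The 7 include Rgs1, with a mean of 1.99 FPKM by title ApoE-/- and 0.72 by title NPRC-/-ApoE-/-. It passed the minimum level only through libraries titled ApoE-/-, so it entered the test by the group in which it was high. The 5 with the smallest p-values were Arrb2, an arrestin that shares its row with Mir7115 (log2 fold change −0.97), the G protein subunit Gng2 (−1.21), the Rac exchange factors Prex1 (−1.05) and Dock2 (−0.93), and Rgs2, which shuts off G proteins (−1.07), all with an adjusted p-value of 0.255 to 0.309 (edgeR).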

How the data were processed

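Whole-aorta RNA-seq of 8 libraries was analysed from 1 table of the authors. Reads were trimmed, mapped with HISAT2 and assembled with StringTie, and the submitters' processing notes name cutadapt 1.9, FastQC and GRCm38. The authors deposited a whole-number count per assembled locus and library, and an FPKM value scaled to length and mapped fragments. Every per-sample column was matched to a sample (0 left over). The 20506 loci that reached 1 FPKM in 3 or more libraries were compared by their counts in R 4.3.3 with edgeR 4.0.16 (TMM, quasi-likelihood test, Benjamini-Hochberg adjustment). The biological coefficient of variation was 0.327. Limma 3.58.1 and DESeq2 1.42.0 were alternatives. For single genes and marker lists, log2 CPM (prior count 2) was compared by exact permutation tests. The receptors and gene lists were chosen with earlier results of these data known. Named were all 9 receptors, the highest ligand of each, up to 5 other receptors and 5 signalling genes, and the 3 most similar loci of 3 receptors. Ccl5, Ccl7 and Rgs1 were named for how they entered the test. The remaining receptors, ligands and signalling genes entered only counts and medians. The qPCR and protein measurements of the study were not used here.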

Additional observations from a re-analysis of the deposited data

Results flagged for a closer look

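Of 18 groups of 5 libraries examined (each receptor under both labels, of which chance gives 0.9), 1 held a library far from the others. With groups by genotype entry, the log2 CPM of Ackr3 was 6.02 in the library titled ApoE-/- 2, against 5.58 in the next and 5.42 in the lowest of the 5 with the entry Apoe-/-.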

How the results depend on the processing

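By title, Ccr2, Cxcr3 and the Ackr1 locus kept an unadjusted p-value under 0.05 in 18 of 18 settings with a test, over log2 fold changes of −2.56 to −1.42, −3.37 to −0.69 and −1.14 to −0.51, and adjusted p-values of 0.00224 to 0.73, 0.0249 to 0.76 and 0.0380 to 0.76. Cxcr4 kept it in 12 of 18. The settings refit the same libraries, so they are not independent of each other. Most used the minimum level that Cxcr3 passed only through libraries titled ApoE-/-. The share of all loci that kept such a p-value in all 18 was not computed. The 4 libraries whose labels agree (3 against 1, values only) gave −2.58 for Ccr2, −3.78 for Cxcr3 and 0.038 for Ackr3. The number of all loci with an unadjusted p-value under 0.05 was 2797, and it was 4666 without the minimum FPKM, 5419 with limma-voom and sample quality weights and 1332 to 4431 with 1 library left out, lowest without NPRC-/-ApoE-/- 2 and highest without NPRC-/-ApoE-/- 1. The number of receptors was 3 to 6 with 1 library left out. The median over the receptors was −0.61 with limma on log2(FPKM + 1), where the pseudocount shrinks low genes, −1.64 in the 4 libraries and −1.84 to −0.81 with 1 library left out, −1.84 being without NPRC-/-ApoE-/- 1.

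The replicate numbers shared by 6 libraries did not pair them (correlations of same-numbered libraries −0.31, −0.11 and 0.01). With the replicate block, 1813 loci and 3 receptors had an unadjusted p-value under 0.05.

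The Cxcr6 locus changed sign by title, at −0.0070 with limma on log2(FPKM + 1), −0.0095 on log2(FPKM + 0.1) and −0.055 to 0.074 with 1 library left out. By genotype entry, leaving out 1 library gave Ccr1 −1.07 to 0.21, Cxcr3 −1.66 to 0.036, Cxcr4 −1.32 to 0.37 and Cx3cr1 −1.13 to 0.65, and the log2 CPM difference became 0.13 for Cx3cr1 and 0.11 for Ackr3. Relative to leukocyte markers the difference by title turned to 0.42 for Ccr1, 0.10 for Cxcr2, 0.041 for Cx3cr1, 0.38 for the Ackr1 locus and 1.12 for Ackr3. These values follow from subtracting the markers' own difference of −1.24. Each receptor had 1 locus, so summing loci gave no other value. The causes were not tested. With 8 libraries, Cxcr2 and Cxcr3 are limited by counts down to 14.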
